A study of Mus musculus with 16 samples.

Results

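Branched-chain amino acid breakdown was followed through 10 genes, all 10 of them present on the array: Bcat2, Bckdha, Bckdhb, Bckdk, Ppm1k, Ivd, Mccc1, Mccc2, Acad8 and Hibadh, which encode enzymes and regulators of branched-chain amino acid breakdown. They were chosen by name, as the non-control probes that carry one of these symbols, and account for 18 of 41174 probes and 10 of 27670 gene names. Messenger RNA was measured in left ventricle on one-colour Agilent arrays, one mouse to an array, in 16 mice of a C57BL/6 N background. NOS3-TG mice carry nitric oxide synthase 3 driven by the alpha-myosin heavy chain promoter, so the transgene is expressed in cardiomyocytes and is no model of the enzyme of endothelial cells. Their reference is the wild-type (WT) littermate without the transgene. The 4 groups were NOS3-TG TAC, WT TAC, NOS3-TG baseline and WT baseline, each with 4 mice, 2 males and 2 females. TAC mice were examined 10 weeks after transverse aortic constriction, which loads the left ventricle with pressure by tightening the aortic arch, and baseline mice were left intact. The animals were matched for age and weight, and the labels give no ages. A difference between TAC and baseline cannot be told apart from one due to surgery, since baseline mice had none, or due to slide, since each slide held mice of 1 condition.

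Leucine, isoleucine and valine are broken down mainly in mitochondria. The transaminase Bcat2 takes off the amino group, and the branched-chain ketoacid dehydrogenase complex then decarboxylates the ketoacids in the committed step. The kinase Bckdk switches this complex off by phosphorylating its E1 alpha subunit, and the phosphatase Ppm1k switches it back on. Beyond the complex the routes part: Ivd and the carboxylase of Mccc1 and Mccc2 serve leucine, and Acad8 and Hibadh serve valine. The heart oxidises these ketoacids as a minor fuel, and the mitochondrial enzymes are abundant in cardiomyocytes.

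The upstream sequences of 4 members are printed to set the opposing regulators Ppm1k, which fell after TAC in WT hearts, and Bckdk, which was not called, beside Ivd and Mccc2 of the leucine route. Each is the 250 bases before the RefSeq start on build GRCm38.p6, read 5′ to 3′ on the strand of the gene, with every CCAAT or its reverse complement ATTGG in capitals. The window of Ppm1k lies at chr6:57535488-57535737 on the minus strand, that of Bckdk at chr7:127903823-127904072 on the plus strand, that of Ivd at chr2:118861744-118861993 on the plus strand and that of Mccc2 at chr13:100015640-100015889 on the minus strand.
Ppm1k: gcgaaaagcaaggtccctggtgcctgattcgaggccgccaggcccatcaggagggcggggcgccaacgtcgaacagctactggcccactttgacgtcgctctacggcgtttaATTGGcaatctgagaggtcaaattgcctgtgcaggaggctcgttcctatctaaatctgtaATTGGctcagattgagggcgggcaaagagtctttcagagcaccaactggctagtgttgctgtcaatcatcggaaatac
Bckdk: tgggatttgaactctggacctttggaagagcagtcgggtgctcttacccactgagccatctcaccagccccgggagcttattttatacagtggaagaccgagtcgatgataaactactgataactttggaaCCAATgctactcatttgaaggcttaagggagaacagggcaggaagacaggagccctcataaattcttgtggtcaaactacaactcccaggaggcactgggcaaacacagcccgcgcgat
Ivd: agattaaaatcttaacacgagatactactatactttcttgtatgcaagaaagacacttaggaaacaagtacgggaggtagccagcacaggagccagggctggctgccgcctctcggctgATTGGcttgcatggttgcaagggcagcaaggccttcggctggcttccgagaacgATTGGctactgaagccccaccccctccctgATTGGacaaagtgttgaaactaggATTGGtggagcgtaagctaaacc
Mccc2: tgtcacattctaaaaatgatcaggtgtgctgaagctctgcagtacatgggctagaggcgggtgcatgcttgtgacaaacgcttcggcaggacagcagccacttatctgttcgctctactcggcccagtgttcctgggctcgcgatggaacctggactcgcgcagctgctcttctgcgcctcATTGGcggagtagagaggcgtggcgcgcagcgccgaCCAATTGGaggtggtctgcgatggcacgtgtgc

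The RefSeq table held a window for all 10 members, 12 windows in all, since Bcat2 and Bckdhb have 2 each. CCAAT was searched on both strands and occurred in 8 of the 12 windows (66.7%), in 8 of the 10 genes, against 33.8% of all 32851 windows of that length. Ivd held 4 matches, Mccc1 and Mccc2 3 each, Ppm1k 2 and Bckdk 1, and neither window of Bcat2 nor that of Bckdha held one. The match thus occurred both in genes that fell after TAC and in Bckdk and Acad8, which were not called. None of the 17 CCAAT matches overlapped a match of another motif searched. The element AAGGTCA, bound by estrogen-related receptors, was in 0 of the 12 windows, against 4.08% of all windows. The E-box CACGTG was in 1 of the 12 (Mccc2), against 6.02%, and the GC box GGGCGG in 5, against 32.7%. CCACCC was found in 4 of the 12, against 28.1%, and TATAAA in 1 (Bckdk), against 12.4%. These matches describe the letters of the windows and were not tested.

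Levels are log2 processed signal minus the 75th percentile of the array, differences are on the same log2 scale, and a level is compared only with the same probe on other arrays. All 18 member probes passed the filter, 17 of them above background on all 16 arrays, and none was saturated. The transgene was seen as labelled: Nos3 averaged 7.38 ± 0.36 in NOS3-TG TAC and 1.69 ± 0.14 in WT TAC hearts, and 7.86 ± 0.17 in NOS3-TG baseline and 1.28 ± 0.22 in WT baseline hearts (SD, n = 4 each). The load marker Nppb averaged 7.62 ± 0.25 in NOS3-TG TAC against 5.55 ± 0.51 in NOS3-TG baseline hearts, and 7.45 ± 0.42 in WT TAC against 4.51 ± 0.45 in WT baseline hearts. Nppa averaged 8.46 ± 0.1 in NOS3-TG TAC against 6.71 ± 0.63 in NOS3-TG baseline hearts. In WT hearts it averaged 8.27 ± 0.36 after TAC against 6.21 ± 0.91 at baseline. Myh7 averaged 8.25 ± 0.1 against 7.63 ± 0.33 in NOS3-TG and 8.3 ± 0.23 against 7.42 ± 0.48 in WT hearts. Of Nos3, Nppa, Nppb and Myh7, 2 rose and Nos3 fell (-0.48) in NOS3-TG hearts at a limma adjusted p under 0.05. In WT hearts all 4 rose. The share of probes well above background ranged from 44.8% to 68.1% with a median of 52.5%. Its farthest arrays were NOS3-TG TAC replicate 4 (68.1%), NOS3-TG baseline replicate 2 (44.8%) and NOS3-TG TAC replicate 3 (46.2%). NOS3-TG baseline replicate 2 was the lowest array of its group for all 10 members, so the NOS3-TG TAC, baseline genotype and interaction results are given also without it. WT TAC replicate 4 was the lowest of its group for 8 of the 10, and NOS3-TG TAC replicate 2 the highest of its group for 8.

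After TAC the fitted level was lower for 9 of 10 genes in NOS3-TG and for all 10 in WT hearts. In NOS3-TG hearts 3 of the 10 fell (Bcat2, Bckdhb and Mccc2) and none rose, at an adjusted p under 0.05 (limma, Benjamini-Hochberg over 15670 genes), beside 5.36% of all genes tested called lower and 6.48% higher. In WT hearts 8 of the 10 genes fell and none rose, beside 17.6% of all genes lower and 10.9% higher. The median difference of the 10 genes was -0.39 in NOS3-TG and -0.58 in WT hearts, against -0.001 and -0.059 over all genes tested. The members outside the calls in both genotypes were the kinase Bckdk and the valine enzyme Acad8. In bulk tissue, fewer cardiomyocytes and less RNA per cardiomyocyte cannot be told apart.

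**Figure D1:**
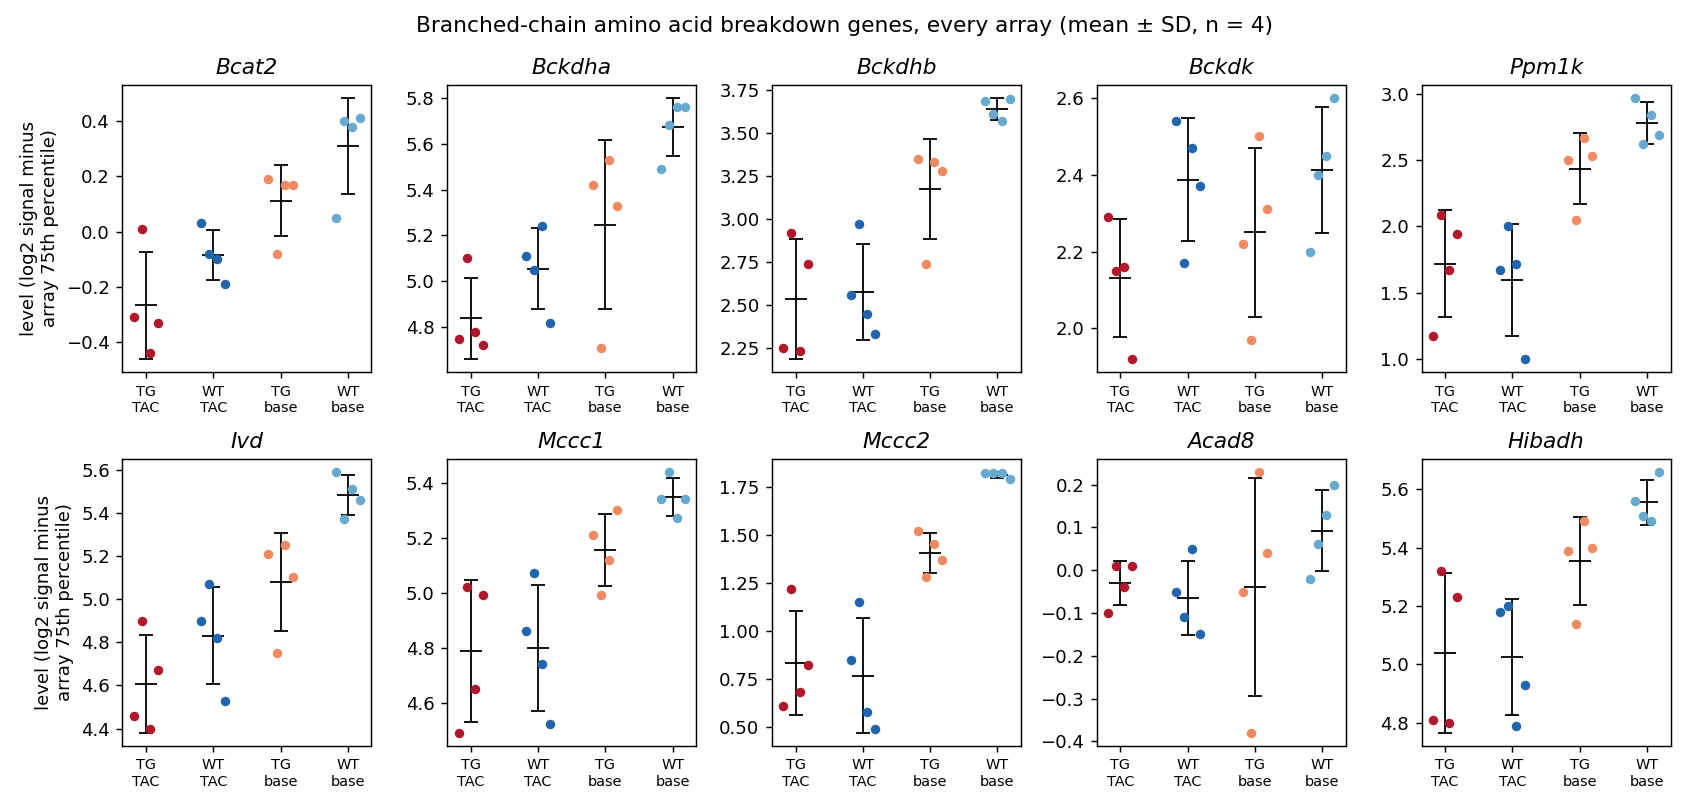
Level of the 10 genes on every array, as log2 processed signal minus the 75th percentile of the array, with 1 panel per gene and its own axis. Points are arrays in replicate order, bars are the mean ± SD (n = 4), TG stands for NOS3-TG and base for baseline. In 8 panels the 4 WT TAC arrays all lie below the 4 WT baseline arrays, and in Bckdk and Acad8 they overlap. The share of all genes without such overlap was not counted.

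Bcat2, the mitochondrial transaminase that starts the route, had levels of -0.31, 0.01, -0.44 and -0.33 on the NOS3-TG TAC arrays, against 0.19, -0.08, 0.17 and 0.17 on the NOS3-TG baseline arrays. The low baseline value, that of replicate 2, lay below the highest TAC value, so these groups overlapped. In WT hearts the levels were 0.03, -0.08, -0.10 and -0.19 after TAC, against 0.05, 0.40, 0.38 and 0.41 at baseline. The WT groups did not overlap, though WT baseline replicate 1 stood only just above the highest TAC array. Bcat2 fell by 0.38 ± 0.11 in NOS3-TG hearts (log2 difference ± SE, limma adjusted p = 0.0447) and by 0.40 ± 0.11 in WT hearts (adjusted p = 0.0195). It was the called gene with the smallest decrease in WT hearts, and that call was lost without WT TAC replicate 4 (adjusted p = 0.0645) and without WT baseline replicate 2, 3 or 4. The NOS3-TG call of Bcat2 was less stable, being lost in 11 of the 16 fits that left out 1 array. Over all 32 alternative fits the Bcat2 call was kept in 14 for NOS3-TG and in 24 for WT hearts. Of its other probes, A_52_P448266 gave -0.40 in NOS3-TG (adjusted p = 0.0431) and -0.31 in WT hearts (adjusted p = 0.0622), and the dim A_52_P393781, above background on 14 arrays, gave -0.21 and -0.37 with no call.

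Bckdha encodes the E1 alpha subunit of the dehydrogenase complex, the subunit that the kinase phosphorylates. Its levels were 4.75, 5.10, 4.78 and 4.72 on the NOS3-TG TAC arrays, against 5.42, 4.71, 5.53 and 5.33 on the NOS3-TG baseline arrays. Baseline replicate 2 was lower than every TAC array here, and the difference of -0.41 ± 0.16 was not called (limma adjusted p = 0.11), though it was without that array (-0.59, adjusted p = 0.0126). WT TAC arrays gave 5.11, 5.05, 5.24 and 4.82, against 5.49, 5.68, 5.76 and 5.76 at WT baseline, with no overlap. Bckdha fell by 0.62 ± 0.16 in WT hearts (adjusted p = 0.012), to a fold of 0.653.

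Bckdhb, the E1 beta subunit of the same complex, had levels of 2.25, 2.92, 2.23 and 2.74 in NOS3-TG TAC hearts, against 3.35, 2.74, 3.33 and 3.28 in NOS3-TG baseline hearts. The groups overlapped through baseline replicate 2 alone. In WT hearts they were 2.56, 2.97, 2.45 and 2.33 after TAC, against 3.69, 3.61, 3.57 and 3.70 at baseline, and every TAC array was below every baseline array. Bckdhb fell by 0.64 ± 0.18 in NOS3-TG hearts (limma adjusted p = 0.0385) and by 1.07 ± 0.18 in WT hearts (adjusted p = 0.00139). The WT decrease took the signal to 0.477 of the baseline level. Its second probe, A_51_P102782, gave -0.56 in NOS3-TG and -0.90 in WT hearts, both called (adjusted p = 0.0476 and 0.00216 over all probes).

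Ppm1k, the phosphatase that activates the complex, had the most negative TAC difference of the 10 genes in both genotypes, by the brightest probe of each gene. In WT hearts this rank depended on the probe, since the second Ppm1k probe (-0.91) fell less than Bckdhb (-1.07) and Mccc2 (-1.05). The levels given next are those of the brightest Ppm1k probe. Its levels were 1.17, 2.09, 1.67 and 1.94 on NOS3-TG TAC arrays, against 2.50, 2.05, 2.67 and 2.53 on NOS3-TG baseline arrays, which overlapped through baseline replicate 2. WT TAC arrays gave 1.67, 2.00, 1.72 and 1.00, against 2.97, 2.62, 2.84 and 2.69 at WT baseline. They did not overlap, and WT TAC replicate 4 was the lowest. In NOS3-TG hearts the difference of -0.72 ± 0.23 missed the threshold (limma adjusted p = 0.0576). Ppm1k fell by 1.18 ± 0.23 in WT hearts (adjusted p = 0.0028), to a fold of 0.441. A second probe of Ppm1k, A_51_P130057, passed in both, with -0.72 in NOS3-TG (adjusted p = 0.0384, all TAC arrays below all baseline arrays) and -0.91 in WT hearts (adjusted p = 0.00623).

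Bckdk, the kinase that inactivates the complex, showed no such difference. Levels of 2.29, 2.15, 2.16 and 1.92 in NOS3-TG TAC hearts lay among the 2.22, 1.97, 2.50 and 2.31 of NOS3-TG baseline hearts, except for replicate 4. The 2.54, 2.17, 2.47 and 2.37 of WT TAC hearts likewise lay within the 2.20, 2.40, 2.45 and 2.60 of WT baseline hearts, except for replicate 2. The difference was -0.12 in NOS3-TG (95% interval -0.35 to 0.12, limma adjusted p = 0.559) and -0.02 in WT hearts (-0.26 to 0.21, adjusted p = 0.911). These intervals exclude for Bckdk a decrease of the size fitted for Ppm1k in the same genotype.

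Within each array, Ppm1k minus Bckdk, each gene centred on its mean over the 16 arrays, followed the same split. It was -0.96, 0.10, -0.33 and 0.18 on the NOS3-TG TAC arrays, against 0.44, 0.24, 0.34 and 0.38 on the NOS3-TG baseline arrays. On WT TAC arrays it was -0.71, -0.01, -0.58 and -1.21, against 0.94, 0.39, 0.55 and 0.25 on WT baseline arrays. All TAC arrays lay below all baseline arrays in both genotypes, with means of -0.25 ± 0.52 after TAC and 0.35 ± 0.08 at baseline in NOS3-TG hearts, and of -0.63 ± 0.49 after TAC and 0.53 ± 0.30 at baseline in WT hearts (SD, n = 4 each). In NOS3-TG hearts the highest TAC value, 0.18, lay only just below the lowest baseline value, 0.24. This difference follows from the same levels as the 2 genes' own results, with the brightest Ppm1k probe, and was given no test. The share of gene pairs that separate in this way was not counted, so it is not known whether this is unusual. For the E1 subunits, centred Bckdha minus Bckdhb averaged 0.08 ± 0.27 in NOS3-TG TAC and -0.15 ± 0.10 in NOS3-TG baseline hearts, and 0.26 ± 0.30 in WT TAC and -0.19 ± 0.16 in WT baseline hearts, with overlap in both genotypes and no test.

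**Figure D2:**
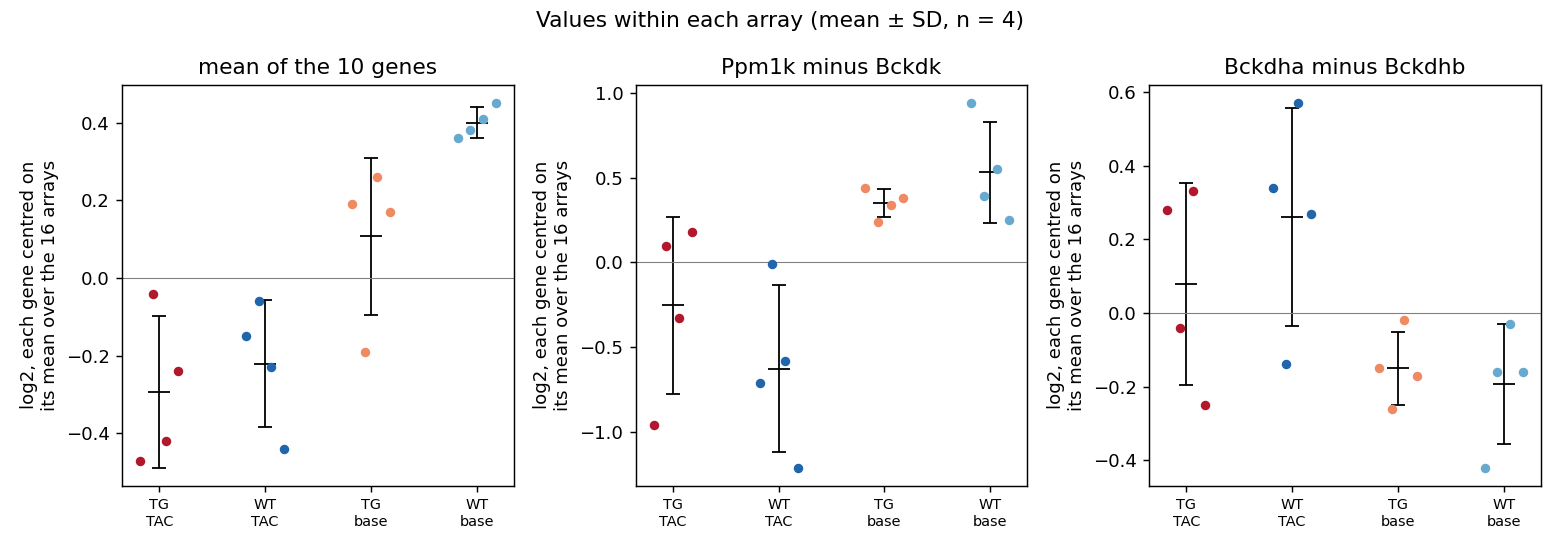
Values within each array, on the log2 scale with each gene centred on its mean over the 16 arrays: the mean of the 10 genes, Ppm1k minus Bckdk, and Bckdha minus Bckdhb. Points are arrays, bars are the mean ± SD (n = 4), TG stands for NOS3-TG and base for baseline. Ppm1k minus Bckdk is higher than 0 on all 8 baseline arrays and at most 0.18 on the TAC arrays. The share of gene pairs that separate in this way was not counted.

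Among the leucine enzymes, Ivd oxidises isovaleryl-CoA. Its levels were 4.46, 4.90, 4.40 and 4.67 in NOS3-TG TAC hearts, against 5.21, 4.75, 5.25 and 5.10 in NOS3-TG baseline hearts. In WT hearts they were 4.90, 5.07, 4.82 and 4.53 after TAC, against 5.59, 5.37, 5.51 and 5.46 at baseline. Only the NOS3-TG groups overlapped, again through baseline replicate 2. Ivd differed by -0.47 ± 0.14 in NOS3-TG hearts (limma adjusted p = 0.0514) and fell by 0.65 ± 0.14 in WT hearts (adjusted p = 0.00544). A second Ivd probe, A_52_P550069, was called in both genotypes, at -0.57 in NOS3-TG (adjusted p = 0.0288) and -0.61 in WT hearts (adjusted p = 0.00929).

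Mccc1 and Mccc2 are the biotin-carrying alpha and the beta subunit of methylcrotonyl-CoA carboxylase, the next step of leucine breakdown. Mccc1 gave 4.49, 5.02, 4.65 and 4.99 on NOS3-TG TAC arrays, against 5.21, 4.99, 5.12 and 5.30 on NOS3-TG baseline arrays. Its WT levels were 4.86, 5.07, 4.74 and 4.52 after TAC, against 5.34, 5.44, 5.27 and 5.34 at baseline, without overlap. Mccc1 differed by -0.37 ± 0.13 in NOS3-TG hearts (limma adjusted p = 0.0804) and fell by 0.55 ± 0.13 in WT hearts (adjusted p = 0.00753). Its other probe, A_52_P442691, was called in NOS3-TG hearts as well (-0.45, adjusted p = 0.031) and in WT hearts (-0.75, adjusted p = 0.00106).

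Judged by the brightest probe of each gene, Mccc2 separated the groups most fully. Its levels were 0.61, 1.22, 0.68 and 0.82 on NOS3-TG TAC arrays, against 1.52, 1.28, 1.45 and 1.37 on NOS3-TG baseline arrays. The WT TAC arrays gave 0.85, 1.15, 0.58 and 0.49, against 1.82, 1.82, 1.82 and 1.79 on WT baseline arrays. On these probes it was the one member without overlap in both genotypes, and its 4 WT baseline arrays were nearly equal. The other probes of Ppm1k (A_51_P130057) and Mccc1 (A_52_P442691) also showed no overlap in either genotype. Mccc2 fell by 0.57 ± 0.15 in NOS3-TG (limma adjusted p = 0.0258) and by 1.05 ± 0.15 in WT hearts (adjusted p = 0.000478), the smallest adjusted p of the 10 genes in both. Its second probe, A_51_P211880, which had no value on 1 array because of an outlier spot, gave -0.62 in NOS3-TG (adjusted p = 0.0472) and -1.31 in WT hearts (adjusted p = 0.000678).

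Of the valine enzymes, Hibadh, which oxidises 3-hydroxyisobutyrate, had levels of 4.81, 5.32, 4.80 and 5.23 in NOS3-TG TAC hearts, against 5.39, 5.14, 5.49 and 5.40 in NOS3-TG baseline hearts. Its WT levels were 5.18, 5.20, 4.79 and 4.93 after TAC, against 5.56, 5.51, 5.49 and 5.66 at baseline. Hibadh differed by -0.31 ± 0.13 in NOS3-TG hearts, where the groups overlapped (limma adjusted p = 0.135), and fell by 0.53 ± 0.13 in WT hearts without overlap (adjusted p = 0.00947). Acad8, the isobutyryl-CoA dehydrogenase that acts earlier on that route, had -0.10, 0.01, -0.04 and 0.01 in NOS3-TG TAC hearts, against -0.05, -0.38, 0.23 and 0.04 in NOS3-TG baseline hearts. WT levels were -0.05, -0.11, 0.05 and -0.15 after TAC, against -0.02, 0.06, 0.13 and 0.20 at baseline. Its difference was 0.01 in NOS3-TG (95% interval -0.20 to 0.22, adjusted p = 0.962) and -0.15 in WT hearts (-0.36 to 0.06, adjusted p = 0.311), and the groups overlapped in both.

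**Figure D3:**
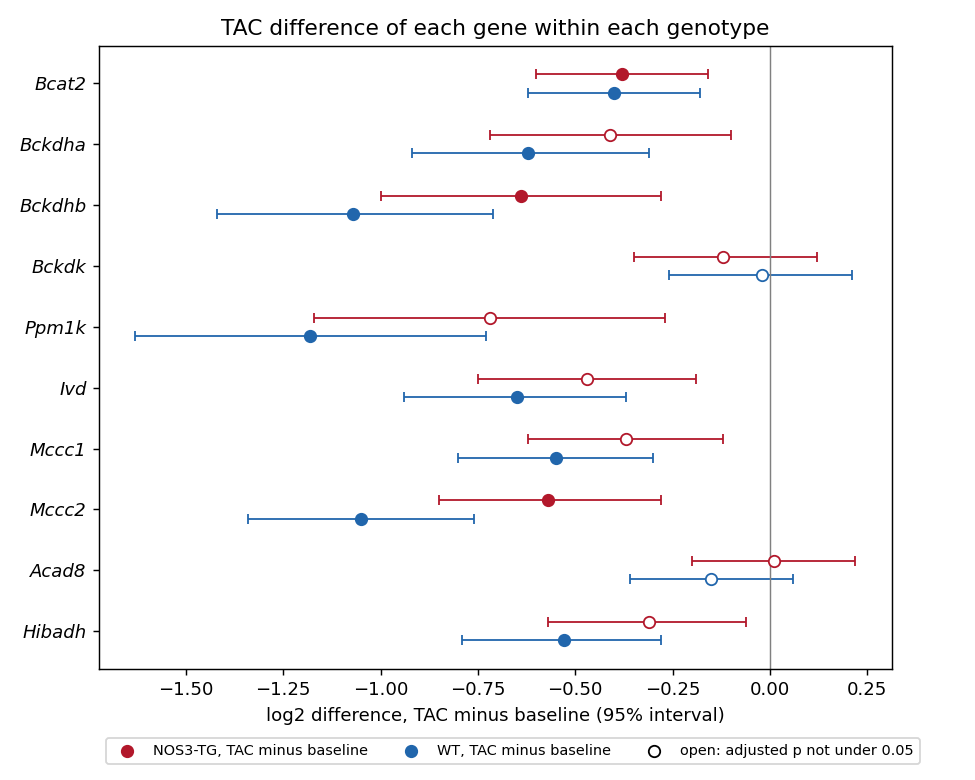
Fitted log2 difference, TAC minus baseline, of each gene with its 95% interval (SE with a normal quantile), NOS3-TG above WT. Filled circles have an adjusted p under 0.05 and open circles do not. All 10 WT values and 9 of the 10 NOS3-TG values are below 0, and Bckdk and Acad8 lie nearest to it.

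The TAC result was examined by scan day, since slide 3, with 2 of the 4 TAC arrays of each genotype, was scanned on a second day. On scan day 1 alone, with 2 TAC and 4 baseline arrays per genotype, 9 of the 10 differences were negative in NOS3-TG (median -0.36, range -0.81 to 0.00) with 0 called, and all 10 were negative in WT hearts (median -0.44, range -0.95 to -0.05) with 2 called, Bckdhb (-0.88, adjusted p = 0.0474) and Mccc2 (-0.81, adjusted p = 0.0188). With scan day as a term in the fit on all arrays, 0 were called in NOS3-TG and 6 in WT hearts, where Bcat2 and Bckdha lost the call, with medians of -0.32 and -0.51. The NOS3-TG count of 3 depended on single arrays: it was 7 without NOS3-TG baseline replicate 2, 6 without WT TAC replicate 4, 5 without NOS3-TG TAC replicate 2, and 0 without any one of NOS3-TG TAC replicates 1, 3 and 4 and NOS3-TG baseline replicates 1 and 3. Without NOS3-TG baseline replicate 2 the members called besides Bcat2, Bckdhb and Mccc2 were Bckdha (-0.59, limma adjusted p = 0.0126), Ppm1k (-0.86, adjusted p = 0.039), Ivd (-0.58, adjusted p = 0.0213) and Mccc1 (-0.45, adjusted p = 0.046). Hibadh (-0.41, adjusted p = 0.0558), Bckdk (-0.20, adjusted p = 0.323) and Acad8 (-0.10, adjusted p = 0.494) were not called without it either. The count was 1 without WT TAC replicate 3, NOS3-TG baseline replicate 4 or any one of WT baseline replicates 2, 3 and 4.

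Cardiomyocyte and other markers were set beside this result. Their counts are to be read beside all genes tested, of which 5.36% were called lower and 6.48% higher in NOS3-TG hearts. In WT hearts these shares were 17.6% lower and 10.9% higher. Whether any marker count differs from these shares was not tested. Of 10 cardiomyocyte markers none was called in NOS3-TG and 3 were lower in WT hearts after TAC. Their summed level, relative to the 75th percentile of the array, was 1820 to 2320 in NOS3-TG TAC, 1870 to 2440 in WT TAC, 2000 to 2710 in NOS3-TG baseline and 2190 to 2750 in WT baseline hearts. Fibroblast markers were higher after TAC in 1 of 8 in NOS3-TG and 4 of 8 in WT hearts, with sums of 195 to 299 in NOS3-TG TAC, 203 to 329 in WT TAC, 173 to 245 in NOS3-TG baseline and 158 to 257 in WT baseline hearts. Macrophage markers were higher in 1 of 8 in NOS3-TG and 4 of 8 in WT hearts, with sums of 26.6 to 33.8 in NOS3-TG TAC, 21.5 to 29.8 in WT TAC, 27.0 to 32.7 in NOS3-TG baseline and 18.7 to 20.1 in WT baseline hearts. Of 6 endothelial markers 1 was higher in NOS3-TG and 4 in WT hearts. Of 4 smooth muscle markers 1 was higher and 1 lower in both genotypes, with sums of 106 to 134 in NOS3-TG TAC, 84.8 to 131 in WT TAC, 53.6 to 69.0 in NOS3-TG baseline and 64.8 to 102 in WT baseline hearts. Of 4 atrial markers, among them Nppa, 1 was higher in both genotypes, with sums of 351 to 403 in NOS3-TG TAC, 220 to 461 in WT TAC, 59.3 to 298 in NOS3-TG baseline and 64.1 to 396 in WT baseline hearts. The smooth muscle and atrial sums did not overlap between NOS3-TG TAC and NOS3-TG baseline hearts and overlapped in WT hearts. The atrial sum is not separate from Nppa, given above, and no sum was made without it. The log2 level of Nppa alone ran from 8.32 to 8.56 in NOS3-TG TAC against 5.87 to 7.21 in NOS3-TG baseline hearts. In WT hearts it ran from 7.78 to 8.61 after TAC against 5.43 to 7.5 at baseline, also without overlap. The hepatocyte markers Alb, Apoa1 and Ttr did not pass the filter. The part of these cell types in the members' differences was not tested.

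Other genes of the pathway were listed as well. Of 11 further enzymes of the 3 routes, 1 fell in NOS3-TG and 8 in WT hearts, with medians of -0.25 and -0.49, and none rose. Dbt, the E2 core of the dehydrogenase complex, gave -0.31 in NOS3-TG hearts (limma adjusted p = 0.207) and fell by 0.56 in WT hearts (adjusted p = 0.0156). Dld, the E3 subunit that the complex shares with pyruvate dehydrogenase, gave -0.12 in NOS3-TG hearts (adjusted p = 0.596) and fell by 0.42 in WT hearts (adjusted p = 0.0347). Aldh6a1, the last dehydrogenase of the valine route, gave -0.51 in NOS3-TG hearts, not called, and fell by 0.90 in WT hearts (adjusted p = 0.00956). Echs1, an enoyl-CoA hydratase, fell by 0.39 in NOS3-TG (adjusted p = 0.0418) and by 0.53 in WT hearts (adjusted p = 0.0046). Hibch, which precedes Hibadh, was not called in NOS3-TG hearts (-0.02, adjusted p = 0.921) or in WT hearts (-0.31, adjusted p = 0.059, all TAC arrays below all baseline arrays). Auh, which follows Mccc1 and Mccc2, counts among the 8 by its brightest probe (-0.49 in WT hearts, adjusted p = 0.00337), but another Auh probe, A_52_P107290, was called higher in NOS3-TG (1.00) and in WT hearts (1.20).

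Propionyl-CoA from valine and isoleucine is handled by biotin and cobalamin enzymes, of which 2 of 10 fell in NOS3-TG and 6 of 10 in WT hearts, with none higher. Hlcs, the ligase that attaches biotin to the carboxylases, fell by 0.83 in NOS3-TG (limma adjusted p = 0.000747) and by 0.91 in WT hearts (adjusted p = 0.000215). Its levels ran from -1.63 to -1.31 in NOS3-TG TAC against -0.71 to -0.35 in NOS3-TG baseline hearts, and from -1.76 to -1.53 in WT TAC against -0.87 to -0.45 in WT baseline hearts. Mmadhc, which routes cobalamin within the cell, fell by 0.39 in NOS3-TG (adjusted p = 0.0128) and by 0.62 in WT hearts (adjusted p = 0.000475). Pcca, a propionyl-CoA carboxylase subunit, and the mutase Mmut each fell by 0.59 in WT hearts (adjusted p = 0.00457 for Pcca and 0.00842 for Mmut). In NOS3-TG hearts Pcca gave -0.36 and Mmut -0.38, neither called.

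Of 9 transporters and sensors of branched-chain amino acids none fell in either genotype, and 1, Slc7a5, rose in both. Among all genes tested, 5.36% were called lower and 6.48% higher in NOS3-TG hearts, and 17.6% lower and 10.9% higher in WT hearts. Whether the counts of this list differ from those shares was not tested. Slc7a5, the light chain of a plasma membrane importer of large neutral amino acids, ran from -2.35 to -1.78 in NOS3-TG TAC against -3.06 to -2.62 in NOS3-TG baseline hearts, and from -2.64 to -1.79 in WT TAC against -3.57 to -3.28 in WT baseline hearts. It rose by 0.68 in NOS3-TG (limma adjusted p = 0.0247) and by 1.18 in WT hearts (adjusted p = 0.000589), without overlap in either. Slc25a44, the mitochondrial carrier of branched-chain amino acids, was not called in NOS3-TG (-0.04) or WT hearts (-0.08).

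Of 6 transcriptional regulators tied to the pathway or to mitochondrial fuel use, 1, Ppara, fell in NOS3-TG and 5 in WT hearts. Klf15, a factor that in the mouse heart controls genes of branched-chain amino acid breakdown, averaged 3.03 ± 0.56 in NOS3-TG TAC and 3.64 ± 0.17 in NOS3-TG baseline hearts, and 3.05 ± 0.47 in WT TAC and 3.79 ± 0.15 in WT baseline hearts (SD, n = 4). Klf15 differed by -0.61 in NOS3-TG hearts (limma adjusted p = 0.0981) and fell by 0.74 in WT hearts (adjusted p = 0.0263), and its other probe, A_51_P299339, was called in both (-0.80 in NOS3-TG and -0.97 in WT hearts). Ppara, the fatty acid receptor, fell by 0.58 in both genotypes (adjusted p = 0.043 in NOS3-TG and 0.0233 in WT hearts). The coactivator Ppargc1a gave -0.61 in NOS3-TG hearts, not called, and fell by 0.76 in WT hearts (adjusted p = 0.018).

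Other mitochondrial fuel genes were lower after TAC as well. In NOS3-TG hearts 8 of 19 fatty acid oxidation genes and 3 of 17 tricarboxylic acid cycle genes fell, with medians of -0.39 and -0.24, and in WT hearts 18 of 19 and 14 of 17 fell, with medians of -0.66 and -0.46. Acaa2, a thiolase of fatty acid oxidation, fell by 0.72 in NOS3-TG (limma adjusted p = 0.0207) and by 1.03 in WT hearts (adjusted p = 0.00132). Sdhc, a succinate dehydrogenase subunit, fell by 0.44 in NOS3-TG (adjusted p = 0.0126) and by 0.79 in WT hearts (adjusted p = 0.000237). No test was made of a difference between any of the lists and the 10 members, and Echs1 belongs to both the fatty acid list and the further enzymes.

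**Figure D4:**
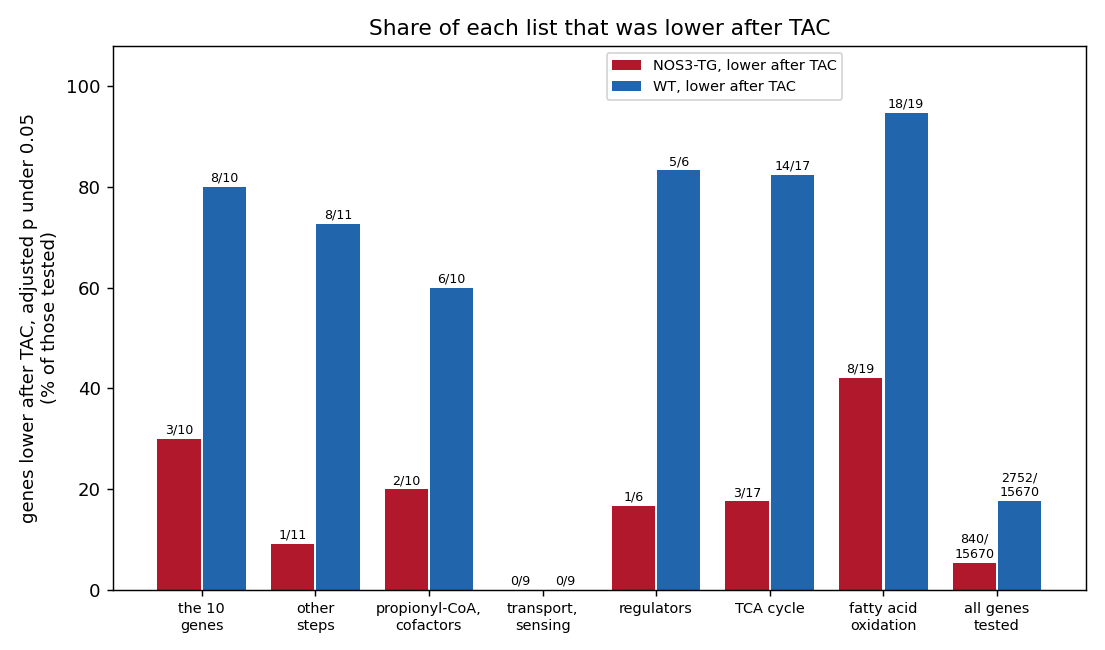
Percent of the tested genes of each list that were lower after TAC at an adjusted p under 0.05, NOS3-TG left of WT, with the count over the number tested above each bar and all 15670 genes at the right. The members stand at 3 of 10 in NOS3-TG and 8 of 10 in WT hearts, and transport and sensing at 0 of 9 in both.

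Profiles most like those of the members were sought over all genes. Over the 16 arrays, after each gene was centred on its own mean, the gene with the smallest root-mean-square difference was Mmut for Mccc1 (0.083), Hadhb for Bckdha (0.11), Acaa2 for Ppm1k (0.147) and Kyat3 for Mccc2 (0.127), out of 15508 genes with a value on every array. It was C030006K11Rik for Bcat2 (0.077), Gstk1 for Bckdhb (0.117), BC021611 for Ivd (0.111) and Fastk for Hibadh (0.071). Bckdhb and Mccc2 were each the other's nearest member (0.129), at rank 4 among all genes from either side. For the other members the nearest member stood lower. Its rank was 11 for Ppm1k, 14 for Bckdha, 27 for Mccc1, 36 for Hibadh and 39 for Ivd. For Bckdk it was 266, for Bcat2 358 and for Acad8 1915. Bckdk was nearest to Eif2b5 (0.097) and Acad8 to Ngrn (0.055). These distances describe 16 arrays that share the same groups, and a gene that varies little, such as Acad8, has small distances to many others.

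Without load, all 10 genes had a lower fitted level in NOS3-TG than in WT hearts, and none passed the test. The differences at baseline ran from -0.47 (Bckdhb) to -0.13 (Acad8), with a median of -0.27 against -0.061 over all genes. With limma 0 of the 10 were called, beside 0.415% of all genes, and 4 of the 10 had an unadjusted p under 0.05, as did 12.3% of all genes (1926 of 15670). The 4 were Bckdha (-0.42 ± 0.16, adjusted p = 0.30), Bckdhb (-0.47 ± 0.18, adjusted p = 0.321), Ivd (-0.41 ± 0.14, adjusted p = 0.267) and Mccc2 (-0.41 ± 0.15, adjusted p = 0.269). In Bckdhb, Ivd and Mccc2 all 4 NOS3-TG arrays lay below all 4 WT arrays. The share of all genes that separated in this way was not counted, so it is not known whether this is unusual. Baseline arrays lay on 2 slides that held both genotypes: NOS3-TG minus WT was negative for all 10 genes on slide 1 (-0.60 to -0.17) and on slide 4 (-0.40 to -0.03). Without NOS3-TG baseline replicate 2, which is on slide 1, all 10 stayed negative with a median of -0.16 (range -0.35 to -0.02). Macrophage markers moved with this contrast: 2 of 8 were called higher in NOS3-TG, with the sums given above not overlapping. Skeletal muscle markers, of which 2 of 4 passed the filter, also separated the genotypes, with none called. Their sums were 56.8 to 84.8 in NOS3-TG baseline and 93.6 to 109 in WT baseline hearts. For the other cell types with a marker passing the filter, the baseline sums overlapped. The part of these markers in the members' differences was not tested.

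After TAC the genotypes were close. NOS3-TG minus WT had a median of -0.02 over the 10 genes and ran from -0.26 (Bckdk) to 0.12 (Ppm1k). With limma 0 of the 10 were called, beside 0.281% of all genes, and 0 had an unadjusted p under 0.05. Within slide 2 the difference was negative for 9 of the 10 genes (-0.31 to 0.03) and within slide 3 for 4 (-0.38 to 0.44), so the TAC slides differed among themselves. Averaged over conditions, all 10 fitted differences were negative (median -0.18, range -0.32 to -0.05), with 0 called beside 2.07% of all genes. At an unadjusted p under 0.05 there were 4 of the 10, beside 16.3% of all genes (2557 of 15670). The mean of the 10 centred genes was -0.29 ± 0.20 in NOS3-TG TAC, -0.22 ± 0.16 in WT TAC, 0.11 ± 0.20 in NOS3-TG baseline and 0.40 ± 0.04 in WT baseline hearts (SD, n = 4).

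Whether TAC acted differently in the genotypes was tested by the interaction, the TAC difference in NOS3-TG minus that in WT hearts. A positive value meant a smaller decrease in NOS3-TG hearts, or for Acad8 no decrease there (0.01). The interaction was positive for 9 of the 10 genes, with a median of 0.20 against 0.066 over all genes and the exception of Bckdk (-0.10). Without NOS3-TG baseline replicate 2 it was positive for 8 of the 10, with a median of 0.09, and without NOS3-TG TAC replicate 2 likewise for 8, with a median of 0.13. Without that baseline array Bckdhb gave 0.25, Ivd 0.07, Bckdha 0.03 and Bcat2 -0.06. With limma 0 of the 10 were called, beside 0% of all 15670 genes, and 1 member had an unadjusted p under 0.05, beside 1167 of all genes. That member was Mccc2 (0.48 ± 0.21, 95% interval 0.07 to 0.89, unadjusted p = 0.037, adjusted p = 0.665). Ppm1k gave 0.46 (-0.18 to 1.09, adjusted p = 0.75) and Bckdhb 0.43 (-0.08 to 0.93, adjusted p = 0.719). The 3 NOS3-TG and 8 WT calls are therefore not shown to differ between the genotypes.

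Averaged over genotypes, 8 of 10 members were lower after TAC, the same number as in WT hearts, with a median of -0.48. Of all genes 20.9% were lower. This comparison uses the same arrays as those within each genotype and is no separate evidence. Females and males of the same groups differed in none of the 10 with limma (0 called beside 1.32% of all genes, 0 at an unadjusted p under 0.05), with fitted female minus male differences from -0.12 to 0.13. The array's own positions place the standing probe of Ppm1k, A_51_P265219, on chromosome 6 from 57470266 to 57470325 and that of Bckdk, A_51_P404413, on chromosome 7 from 124004844 to 124004903. The probe of Bckdhb, A_52_P416879, lies on chromosome 9 from 84220473 to 84220532. The sources used here do not name the build of these probe positions, which are not on the same coordinates as the promoter windows.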

How the data were processed

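Left ventricular RNA of 16 mice was labelled with Cy3 and hybridised to 1 array each, per the labels' protocols. The authors deposited 1 scanner table per array, which the submitters' processing notes credit to Agilent Feature Extraction 9.5.1.1. Its spot intensity was read as the processed signal, which the software had corrected for background and for a spatial trend, per the file headers, with no normalization between arrays. A series table of log2 values, deposited for 22057 probes, was made by steps that the sources used here do not name. Column medians lay at 9.95 to 9.99, and each column tracked its own array's log2 signal (r of at least 0.9996 across probes). Its scale is therefore log2 intensity, without centring of genes, and how arrays were aligned is unknown. It served as an alternative.

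Control and outlier spots were left out and spots of 1 probe averaged, which gave 41174 probes. Of these, 22951 were named by accession and 9768 by symbol or synonym in a RefSeq table (GRCm38.p6), and 8455 stayed under the array's own name. The log2 signal minus the 75th percentile of the array (signal 1053 to 1491) was analysed for probes well above background on at least 4 arrays, with the brightest probe standing for a gene, 15670 genes in all. Limma 3.58.1 in R 4.3.3 fitted 4 group means and sex over 16 arrays. Calls are at a two-sided Benjamini-Hochberg adjusted p under 0.05 within each of 8 comparisons. Precision is limited by the number of arrays, and the median SE of a difference between 2 groups was 0.132. The 95% intervals were taken from the SE with a normal quantile. They are therefore narrower than intervals that would match the limma p values. Replicates are numbered in accession order, and the labels call them biological repeats. Slides 1 and 4 held baseline and slides 2 and 3 TAC arrays, with both genotypes and sexes on each. Promoter windows were searched in Python 3.11.15, and the fit was tested on simulated data.

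The members, the gene lists, the tests and the alternatives were chosen with earlier results of these data known. All 10 members are named. Of the other lists, up to 4 called genes with the largest differences were eligible for naming, besides Klf15, Dbt, Dld and Hibch. Auh and Slc25a44 were chosen after their values were seen. Alternatives covered normalization, background correction, the authors' values, filters, probe rules, array weights, the variance trend, the sex term, the groups fitted, slide, scan day and each array left out.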

Additional observations from a re-analysis of the deposited data

Results flagged for a closer look

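Single arrays that stood apart from the other 3 of their group were sought with Dixon's ratio, the gap to the nearest array over the range of the group, against its 95% critical value for 4 samples. Of 40 groups (10 genes in 4 groups each) 3 held such an array, and chance flags about 1 in 20. For Bcat2, NOS3-TG baseline replicate 2 stood below its group at a log2 level of -0.08 (ratio 0.918), and WT baseline replicate 1 below its group at 0.05 (ratio 0.893). For Bckdhb, NOS3-TG baseline replicate 2 stood below its group at 2.74 (ratio 0.889). Replicate 2 of the NOS3-TG baseline group also had the lowest share of probes well above background, 44.8%, and an array weight of 0.4 in limma. Whether that array's quality has a part in these values was not tested.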

How the results depend on the processing

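Each of 8 comparisons was refitted under 17 alternatives where they applied and with each of 16 arrays left out. For TAC in NOS3-TG hearts, 3 members were called as reported. The count was 7 with the authors' values and with array weights, 6 with quantile normalization and with the 75th percentile over probes detected on all arrays, and 5 with a filter on all 16 arrays and with an intensity trend. It was 0 with no filter, with the compared groups alone, with scan day as a block, on scan day 1 only and without the 3 arrays of extreme shares above background. With 1 array left out it ran from 0 to 7. For TAC in WT hearts (8 called) the count was 2 on scan day 1 only, which has fewer TAC arrays, and 7 to 8 with 1 array left out, the call lost being that of Bcat2. Averaged over genotypes (8 called) it was 5 on scan day 1 only and 8 with each array left out. In the other 5 comparisons 0 members were called under every setting run. The cause of these shifts was not tested, except that scan day 1 only and leaving out arrays use fewer samples. No called member changed its direction under any of these settings. Over all genes, the calls for TAC in WT hearts ran from 1257 (scan day 1 only) to 5858 (array weights), and in NOS3-TG hearts from 401 (without the 3 arrays) to 2831 (array weights). Single mice could not be paired between groups, because the labels give the groups no shared replicate numbers. Each slide holds both genotypes, and with slide as a block 0 members were called in the genotype and interaction comparisons. Signal over background limits Bcat2's dim probe A_52_P393781 alone among the members' probes.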
